A study of Cannabis sativa with 10 samples.

Results

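The change from week 1 to week 3 of flowering was compared between male and female shoot apices of Cannabis sativa, in which a plant normally carries flowers of a single sex. For each gene, the week 3 minus week 1 difference in females was subtracted from the same difference in males on the log2(FPKM + 1) scale. FPKM relates the fragments sequenced from a gene to its length and to the size of the library. A gene entered when its mean reached 1 FPKM in at least 1 of the 4 flowering groups, which 18230 of the 35192 listed genes did, and 8 of the 10 libraries of the series form the contrast. This difference of differences is called the interaction below; it is positive when the male change is the higher of the pair.

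The 4 flowering groups, of 2 libraries each, were male week 3, male week 1, female week 3 and female week 1, all of genotype A3. The labels give every male library a male flower induction treatment named STS, taken to mean silver thiosulfate, whose silver ions disable the ethylene receptors and which growers apply to obtain stamens on genetically female plants. Female libraries are labelled with female flower induction and no STS, so sex and STS treatment cannot be told apart here. The remaining group, 2 vegetative libraries of the same genotype, lent its spread to the fit and no value to the contrast. The labels do not say that replicates came from separate plants, so p-values measure the spread between libraries, which may be technical.

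Floral organ identity in plants is set by combinations of MADS-box transcription factors: B-class genes specify stamens together with AGAMOUS-type genes, while AGAMOUS-type genes and ovule identity genes specify carpels and ovules. In a stamen, the tapetum feeds the developing pollen and makes the precursors of its outer wall, and the pollen mother cells enter meiosis. A female cannabis apex instead carries pistils and bracts with glandular trichomes, the site of cannabinoid and terpene synthesis. A shoot tip holds all of these together with meristem and young leaves, so in these bulk samples fewer cells of a type and less RNA per cell cannot be told apart.

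The label check used the closest relatives of organ identity genes. TM6 (LOC115714657), the gene closest to the stamen gene APETALA3, had 170 and 156 FPKM in males at week 3, against 2.22 and 0.894 at week 1. Female libraries held 0.0393 and 0.156 FPKM of it at week 3, and it was listed at 0 in both week 1 libraries. YABBY 4 (LOC115712472), the gene closest to the ovule gene INNER NO OUTER, had 4.4 and 2.34 FPKM in females at week 3, against 0.0758 and 0.368 at week 1, while male libraries held 0 and 0.084 FPKM at week 3 and 0.543 and 0.176 at week 1. PMADS 2, AGL11 and CRABS CLAW, whose values are given with their classes, also parted by sex at week 3 as labelled. At week 1 TM6, PMADS 2 and YABBY 4 were below 3 FPKM in both sexes, while AGL11 had 6.83 to 10.2 FPKM. A gene described as AGAMOUS (LOC115700192) has the ovule gene SEEDSTICK as its closest Arabidopsis protein, at 32% identity, and was high in week 3 males, so by that match it ran against the labels.

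Totals of FPKM ran from 603616 to 764672, with both female week 3 libraries lowest, and depth relative to female week 1 replicate 1 ran from 0.863 to 1.236. The depth in reads is unknown, so no counting interval can be given. The difference between replicates had an SD over genes of 0.39 log2 units at male week 3, 0.417 at male week 1, 0.252 at female week 3 and 0.29 at female week 1.

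More genes were called between the weeks in males than in females. The fit gave each gene 1 spread shared by all groups, although replicates lay further apart in males than in females. Calls may thus be too many in males and too few in females, which also bears on the classes of 1 sex. By size alone, 5823 genes changed by at least 1 log2 unit in males and 2236 in females. Of the 18230 genes, 6192 (34%) were higher and 5109 (28%) were lower at week 3 than at week 1 in males, with the limma test at an adjusted p below 0.05. In females 3430 (18.8%) were higher and 3015 (16.5%) were lower. The interaction was called for 4721 genes (25.9%) with the higher change in males and for 3637 (20%) with the lower change in males. The median over all genes was 0.03 log2 units for the male change, 0.03 for the female change and 0.01 for the interaction. Across genes, which are not independent replicates and whose male and female changes come from separate libraries, the male and female changes had a Pearson r of 0.26 and a Spearman rho of 0.333, given as a description.

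These splits depend on the scale. With every library scaled to the same total (TPM), the female median moved to 0.22 and the interaction median to -0.23, and the share of interaction calls with the higher change in males was 41.3%, against 56.5% on the deposited values. Interaction calls with the lower change in males then numbered 5557, and female rises 5849. Female counts also fell whichever female library was left out, which leaves 1 library in its group. They rose when either male week 1 library was left out. Leaving out 1 library gave 1923 to 3818 female rises, fewest without female week 3 replicate 1, and 1787 to 3380 female falls, fewest without female week 3 replicate 2. Female rises numbered 2116 without replicate 1 of female week 1 and 2160 without replicate 2 of female week 3. Female falls numbered 1827 without replicate 1 of female week 1 and 1829 without replicate 1 of female week 3.

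Genes were sorted by direction. Opposite genes (5.28% of all) were called in both sexes with different signs and in the interaction: 400 (2.19%) rose in males and fell in females, and 562 (3.08%) rose in females and fell in males. Together genes were called in both sexes with the same sign: 1505 (8.26%) rose and 1967 (10.8%) fell. Genes of 1 sex only were called in that sex and in the interaction, not called in the other sex, and had a 95% interval of the other sex's change within 1 log2 unit of 0. Of these, 3193 (17.5%) rose in males only, 1476 (8.1%) fell in males only, 884 (4.85%) rose in females only and 276 (1.51%) fell in females only, which makes 6.36% of all genes for females. The other 540 genes called in the interaction (2.96%) met none of these definitions.

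The size of several classes fell whichever female library was left out. Genes that rose in males and fell in females numbered 170 without replicate 2 and 199 without replicate 1 of female week 3, and 216 without replicate 2 and 194 without replicate 1 of female week 1. Genes that rose in females and fell in males numbered 270 and 324 without replicates 1 and 2 of female week 3, and 309 without replicate 1 of female week 1. Genes that rose together numbered 826 without female week 3 replicate 1, and 924, 934 and 989 without the other female libraries. Genes that fell together numbered 1297 and 1301 without replicates 1 and 2 of female week 3, and 1294 without replicate 1 of female week 1. Those up in females only numbered 526 without replicate 1 of female week 3 and 566 without replicate 1 of female week 1. Genes that fell in females only numbered 152 to 183 without any 1 female library.

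**Figure D1:**
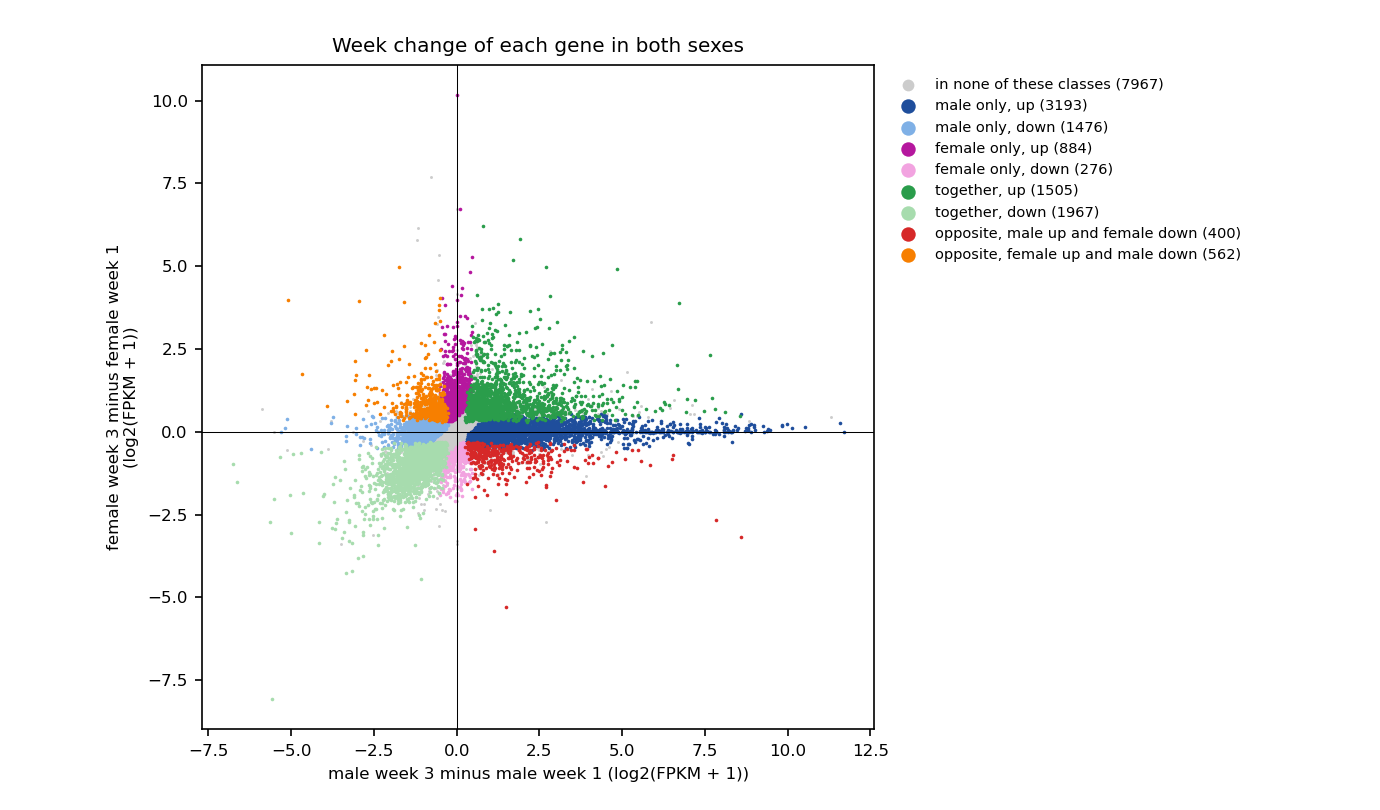
Each point is 1 of the 18230 genes; the horizontal axis is the change in males and the vertical axis the change in females, both week 3 minus week 1 on the log2(FPKM + 1) scale, and colours mark the classes with their gene counts. Male-only genes (dark and light blue) spread along the horizontal axis, female-only genes along the vertical axis, and the opposite genes (red and orange) fill the lower right and upper left.

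Sex differences of at least 1 log2 unit were counted at each week. Over all 18230 genes tested, 5443 had one at week 3 and 97 at week 1, and the difference was larger at week 1 for 2654. Of the 4721 genes with the higher change in males, 3441 differed by at least 1 log2 unit between male and female apices at week 3, and 13 did at week 1. Of the 3637 genes with the lower change in males, 1738 did so at week 3 and 43 at week 1. The sex difference was larger at week 1 than at week 3 for 50 of the 4721 genes and for 108 of the 3637; these genes were called in the interaction, so the counts describe them and test nothing.

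Genes that rose in males and fell in females included a pair of MADS-box genes whose Arabidopsis relative delays flowering. JOINTLESS (LOC115714329, chromosome 4, 66455691 to 66461205), related to the Arabidopsis floral repressor SVP, had 69.1 and 56.9 FPKM in males at week 3, against 7.76 and 6.33 at week 1. Female libraries held 0.434 and 0.611 FPKM at week 3, against 4.84 and 5.77 at week 1. The 4 groups did not overlap by week within either sex, and week 1 levels were close between the sexes. The male change was 2.99 ± 0.16 and the female change -2.05 ± 0.16 log2 units (SE), and the interaction was 5.04 ± 0.22 (limma adjusted p = 1.005e-07). Vegetative apices held 23.6 and 26.8 FPKM, below male week 3 and above every other flowering library.

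SVP (LOC115721274, chromosome 2, 5148496 to 5156195) had 32.4 and 24.2 FPKM in males at week 3, against 13.1 and 11.6 at week 1. Female libraries held 0.181 and 0 FPKM at week 3, against 14 and 10.4 at week 1, so the gene was at or near 0 in week 3 females. The male change was 1.12 ± 0.18, the female change -3.59 ± 0.18 and the interaction 4.71 ± 0.26 (limma adjusted p = 4.39e-07). Vegetative levels were 28.7 and 29.5 FPKM, in the range of the week 3 males.

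The other genes named in this class have varied roles. Ferredoxin-NADP reductase, root isozyme (LOC115695589, chromosome 6, 74563378 to 74565938), which passes electrons between NADPH and ferredoxin in plastids without light, had 403 and 1080 FPKM in males at week 3, against 0.632 and 0.82 at week 1. Female libraries held 0.0721 and 0 FPKM at week 3, against 10.3 and 6.78 at week 1. The interaction of 11.76 ± 0.52 log2 units (limma adjusted p = 9.44e-08) was the largest named in this class. A class V chitinase, CHIT5-like (LOC115695573, chromosome 6, 74037048 to 74038807), had 1340 and 3200 FPKM in males at week 3, against 11.3 and 5.78 at week 1. Female libraries held 0.513 and 0.118 FPKM at week 3, against 9.34 and 5.68 at week 1. No library of week 3 overlapped week 1 in either sex for these genes.

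Trehalose-phosphate synthase 1 (LOC115697537), which makes the sugar signal trehalose 6-phosphate, changed by 4.47 ± 0.28 log2 units in males and -1.64 ± 0.28 in females. A putative cell wall protein (LOC115700282) had 754 and 949 FPKM in males at week 3, against 207 and 425 at week 1, and 10.4 and 9.13 FPKM in females at week 3, against 430 and 416 at week 1. INAPERTURATE POLLEN1 (LOC115716968), whose Arabidopsis relative places the apertures of the pollen wall, had 35.0 and 43.5 FPKM in males at week 3, against 3.94 and 6.77 at week 1. In females it had 1.25 and 0.597 FPKM at week 3, against 4.7 and 4.89 at week 1. The B-class gene PMADS 2 (LOC115699531), the closest relative of PISTILLATA, had 126 and 112 FPKM in males at week 3, against 1.6 and 1.4 at week 1. In female libraries it was already low, with 0 and 0.231 FPKM at week 3 against 0.998 and 1.11 at week 1, and fell by 0.89 ± 0.17 log2 units (limma adjusted p = 0.00331).

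Most histone genes fell in females, while in males some rose and some fell. Histones package DNA, and their canonical forms are made while DNA is replicated. Of 40 histone genes tested, 12 rose and 15 fell in males, and 0 rose and 34 fell in females; the interaction was called for 30 with the higher change in males and for 1 with the lower. The interaction share was 77.5%, beside 45.8% of all genes. The median change was -0.13 log2 units in males and -1.48 in females, beside 0.03 and 0.03 over all genes. In classes, 8 were opposite, 15 fell together, 11 fell in females only and 3 rose in males only. The 12 male rises became 6 without male week 3 replicate 2. Summed over the list, male apices held 17840 and 19270 FPKM at week 3, against 21240 and 16720 at week 1, which overlap. Female apices held 7103 and 6240 FPKM at week 3, against 15020 and 17000 at week 1, so the sum was lower in both week 3 libraries.

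The opposite histones included 3 H2B genes side by side on chromosome 2, which may share reads because their sequences are related. The leading one, LOC115718412 (51547599 to 51548328), had 685 and 650 FPKM in males at week 3, against 264 and 212 at week 1. Female libraries held 69.2 and 55.7 FPKM at week 3, against 175 and 203 at week 1. Its interaction was 3.08 ± 0.26 log2 units (limma adjusted p = 8.33e-06). A histone H2A.1 gene (LOC115709207) fell in females only, with 258 and 201 FPKM at week 3 against 805 and 904 at week 1. Male libraries held 1050 and 1180 FPKM of it at week 3, against 1200 and 987 at week 1, and overlapped. The gene H3.3-like (LOC115701521), of the histone H3 form that is laid down outside replication, had 492 and 641 FPKM in males at week 3, against 1.92 and 2.31 at week 1. Female libraries held 2.78 and 2.95 FPKM at week 3, against 2.46 and 2.61 at week 1.

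Cell cycle genes divided, and 64.4% were called in the interaction, beside 45.8% of all genes. Of 45 tested, 18 rose and 20 fell in males, 2 rose and 26 fell in females, and the interaction was called for 20 with the higher and 9 with the lower change in males. By class, 11 rose in males and fell in females, and 12 fell in both. All 7 tested genes described as MCM, after the helicase that opens DNA for replication, were among those that fell together. They fell by 0.81 to 1.41 log2 units in males and by 0.84 to 1.34 in females. Of 11 mitotic cyclins, B-type cyclins and B-type kinases, which drive entry into mitosis, 5 rose in males and fell in females, 3 fell together and 1 rose in males only. This division by function was made after the values had been seen. Among the opposite members, also picked with their values known, the cyclin-dependent kinase B2-1 genes LOC115713754 and LOC115711665 changed by 0.88 and 0.99 log2 units in males and by -1.10 and -1.02 in females.

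Most meiosis genes rose in males, and few were called in females. Of 15 tested, 14 rose and 0 fell in males, 0 rose and 1 fell in females, and 13 were called in the interaction, all with the higher change in males. The male median was 1.90 log2 units and the female median 0.05, and 86.7% were called in the interaction, beside 45.8% of all genes. REC8, listed as sister chromatid cohesion 1 protein 1 (LOC115706800), holds sister chromatids together in meiosis and had 39.2 and 22.6 FPKM in males at week 3, against 0.0777 and 0.0883 at week 1. Female libraries held 0.103 and 0 FPKM at week 3, against 0.0508 and 0.0739 at week 1. The axis protein ASY1 (LOC115712153) had 167 and 98.9 FPKM in males at week 3, against 7.72 and 6.88 at week 1, and its interaction was 3.92 ± 0.29 log2 units (limma adjusted p = 3.68e-06). Its female libraries were flat, at 7.99 and 8.35 FPKM at week 3 and 8.1 and 7.63 at week 1.

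**Figure D2:**
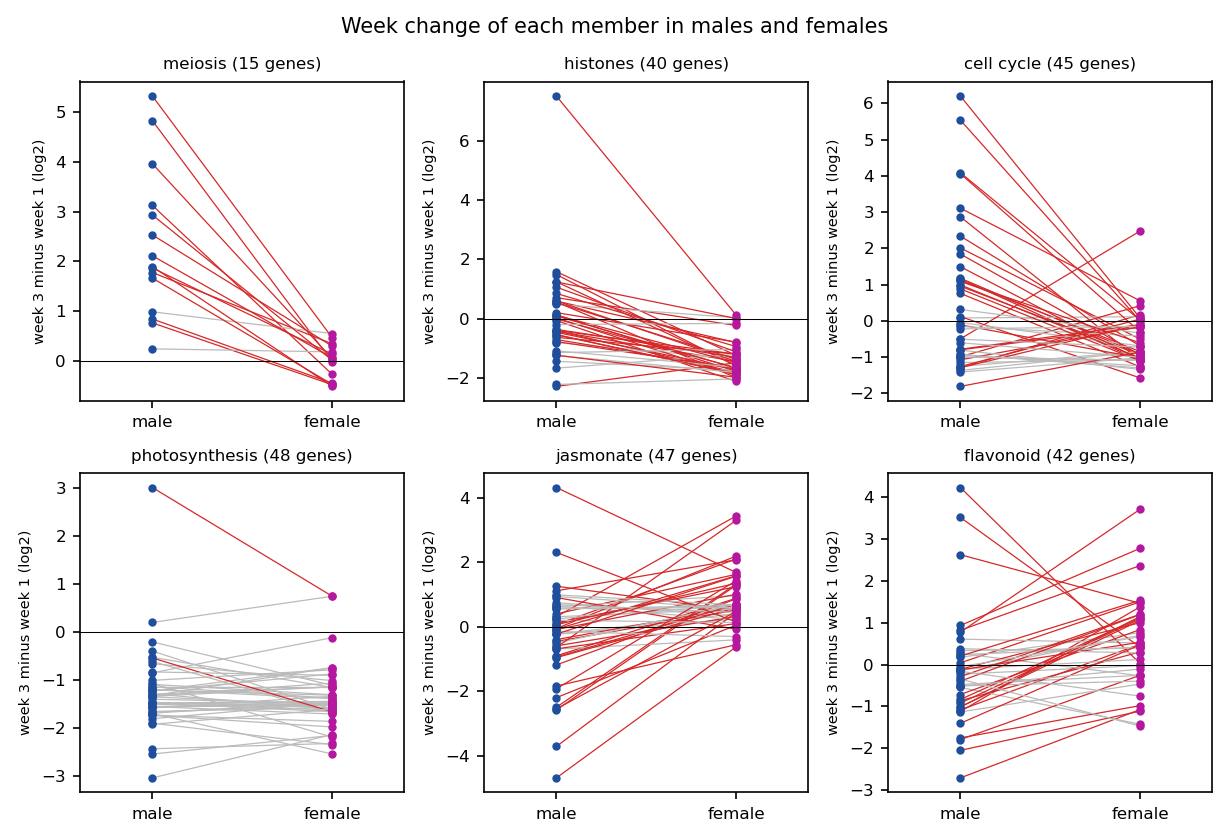
Each line joins the change of 1 gene in males (left) and in females (right), week 3 minus week 1 on the log2(FPKM + 1) scale, for 6 gene lists; red lines mark genes called in the interaction and grey lines genes that were not. Histones drop to the female side with 30 higher interaction calls, jasmonate and flavonoid genes climb to it, and most photosynthesis genes lie below 0 on both sides, with 2 interaction calls.

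Ranked by the smaller of the changes in the sexes, the genes that rose in females and fell in males were led by a lipid-transfer protein, thionins, phloem proteins and an ovule identity gene. Non-specific lipid-transfer protein 1 (LOC115696872, chromosome 7, 2432294 to 2452827), of a family that carries lipids to surfaces and in defence, had 0.272 and 0.277 FPKM in males at week 3, against 48.7 and 37.8 at week 1. Female libraries held 1070 and 694 FPKM at week 3, against 48.8 and 58.9 at week 1. From overlapping or close week 1 levels the sexes moved in different directions, by -5.11 ± 0.20 log2 units in males and 3.98 ± 0.20 in females, with an interaction of -9.09 ± 0.29 (limma adjusted p = 1.21e-08).

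Thionins are small antimicrobial peptides. The gene LOC115712639 (chromosome X, 2817784 to 2818780) had 22.8 and 17.9 FPKM in males at week 3, against 178 and 149 at week 1. Female libraries held 3370 and 2670 FPKM at week 3, against 194 and 190 at week 1. A thionin-like gene nearby, LOC133028987 (chromosome X, 2488891 to 2489884), changed by -2.08 ± 0.19 log2 units in males and 2.0 ± 0.19 in females. A further thionin of that stretch, LOC115719017 (chromosome X, 3035521 to 3039271), fell in males only, with 0.259 and 0 FPKM at week 3 against 53.8 and 27.1 at week 1. In females it had 31.8 and 28.1 FPKM at week 3, against 22.4 and 22.5 at week 1.

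SIEVE ELEMENT OCCLUSION proteins plug the phloem after wounding. A gene of this family on chromosome 9, LOC115723347 (14589252 to 14592968), had 63.3 and 78.2 FPKM in males at week 3, against 717 and 494 at week 1. Female libraries held 1530 and 1570 FPKM at week 3, against 344 and 363 at week 1. Its neighbour LOC133031147 (14575417 to 14579095) had an interaction of -5.21 ± 0.40 log2 units, beside -5.19 ± 0.30 for LOC115723347, and the copies may share reads.

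AGL11 (LOC133031811, chromosome X, 71236908 to 71244796), the relative of the Arabidopsis ovule identity gene SEEDSTICK, had 1.17 and 0.846 FPKM in males at week 3, against 9.61 and 6.83 at week 1. Female libraries held 83.8 and 69.8 FPKM at week 3, against 8.17 and 10.2 at week 1. The interaction was -5.12 ± 0.31 log2 units (limma adjusted p = 7.68e-07), and no groups overlapped by week within a sex. CRABS CLAW (LOC115699020), a carpel and nectary factor, had 0.681 and 0.534 FPKM in males at week 3, against 6.97 and 3.99 at week 1. Female libraries held 22.8 and 18.6 FPKM at week 3, against 3.58 and 4.34 at week 1. At week 1 the libraries of the sexes overlapped for both genes.

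Of 11 gynoecium and ovule genes tested, 0 rose and 5 fell in males, 9 rose and 1 fell in females, and 8 were called in the interaction, all with the lower change in males. The male median was -0.37 log2 units and the female median 1.05, and 72.7% were called in the interaction, beside 45.8% of all genes. With no filter on low values, 1 of 14 rose in males and 1 was called with the higher change in males. AINTEGUMENTA (LOC115712812), which promotes organ growth and ovule development, changed by -1.91 ± 0.16 log2 units in males and 0.64 ± 0.16 in females. Its female call was lost without female week 1 replicate 1 (limma adjusted p = 0.0974), female week 3 replicate 1 (0.0625) or female week 3 replicate 2 (0.0637).

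**Figure D3:**
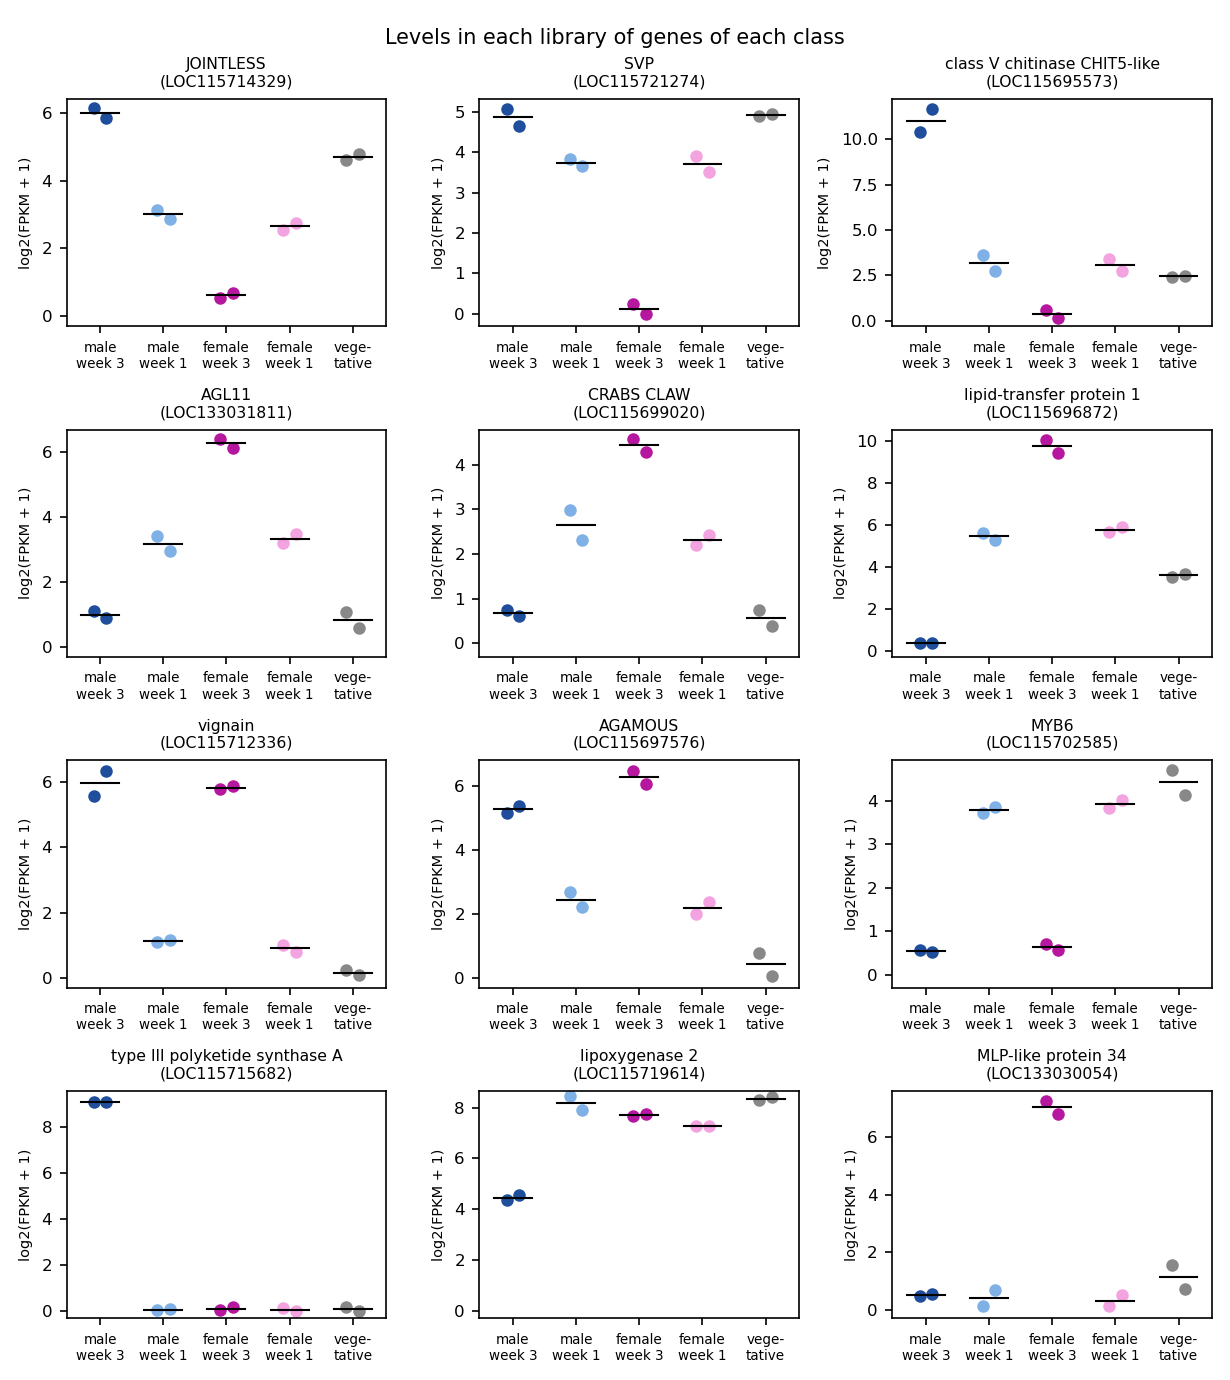
Points are the 2 libraries of a group and bars their mean, on the log2(FPKM + 1) scale, for male week 3, male week 1, female week 3, female week 1 and vegetative apices; rows from the top show genes that rose in males and fell in females, genes that rose in females and fell in males, genes that changed together, and genes of 1 sex only. JOINTLESS, SVP and the chitinase part at week 3 from a shared week 1 level with males high, and AGL11, CRABS CLAW and lipid-transfer protein 1 with females high.

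Jasmonate is a lipid-derived hormone of wounding, defence and stamen maturation. Of 47 jasmonate genes tested, 12 rose and 18 fell in males, 29 rose and 2 fell in females, and the interaction was called for 4 with the higher and 27 with the lower change in males. The median change was -0.09 log2 units in males and 0.60 in females, and 66% were called in the interaction, beside 45.8% of all genes. The 29 female rises became 19 without female week 3 replicate 1. Summed over the list, male apices held 911 and 1018 FPKM at week 3, against 2343 and 2108 at week 1. Female apices held 2915 and 2967 FPKM at week 3, against 1719 and 1572 at week 1.

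The 11 opposite jasmonate genes all rose in females and fell in males. They covered successive steps of the pathway, an account made after the values had been seen. Lipoxygenase 2 LOC115720530, which oxygenates linolenic acid, changed by -2.50 log2 units in males and 1.32 in females. Allene oxide synthase 3 LOC115703182 changed by -1.93 in males and 1.42 in females, and allene oxide cyclase LOC115701324 by -0.94 in males and 0.69 in females. The other allene oxide synthase 3, LOC115703186, instead fell in both sexes, by 4.70 ± 0.14 log2 units in males and 0.63 ± 0.14 in females, a female call lost without female week 1 replicate 1 (limma adjusted p = 0.0582). The 12-oxophytodienoate reductase 3 gene LOC115706391 changed by -0.60 in males and 0.32 in females. Among the repressors of the response, TIFY 6B (LOC115714189) changed by -0.96 in males and 0.58 in females. A 9S-lipoxygenase, LOC115719336, which makes oxylipins other than jasmonate, had 79.6 and 103 FPKM in males at week 3, against 598 and 506 at week 1. In females it had 830 and 898 FPKM at week 3, against 362 and 346 at week 1, and its interaction was -3.87 ± 0.22 log2 units (limma adjusted p = 5.9e-07).

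Another lipoxygenase 2 gene, LOC115719614, fell in males only, with 19.3 and 22.4 FPKM at week 3 against 347 and 236 at week 1. Female libraries held 204 and 212 FPKM at week 3, against 155 and 152 at week 1, and the female change of 0.44 ± 0.17 log2 units did not pass (limma adjusted p = 0.073).

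Most defence genes of the salicylate branch that passed the filter fell in males. Of 18 tested, 4 rose and 11 fell in males, 7 rose and 2 fell in females, and the interaction was called for 1 with the higher and 11 with the lower change in males. The share called in the interaction was 66.7%, beside 45.8% of all genes. With no filter on low values 31 were tested, of which 7 rose and 11 fell in males. The male median was then 0.05 log2 units, against -0.81, with 2 higher and 12 lower interaction calls. In this list week 1 males stood out. DMR6-LIKE OXYGENASE 2 (LOC115715781), a salicylate-degrading enzyme in Arabidopsis, had 1.89 and 1.27 FPKM in males at week 3, against 88.1 and 47.2 at week 1. Female libraries held 2.75 and 2.99 FPKM at week 3, against 0.26 and 0.0504 at week 1. DOWNY MILDEW RESISTANCE 6 (LOC115717114) had 2.27 and 3.66 FPKM in males at week 3, against 38.1 and 38.8 at week 1, while the 4 female libraries held 4.7 to 7.38 FPKM. For both genes the week 1 males were above every other library, so here the sexes stood furthest apart at week 1.

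Trichome and flavonoid genes also parted. Of 9 cannabinoid genes tested of 21 matched, 0 rose and 6 fell in males, and 3 rose and 1 fell in females. In the interaction 6 were called, all with the lower change in males, or 66.7%, beside 45.8% of all genes. With no filter on low values 16 were tested, of which 3 rose and 6 fell in males. The male median was then -0.27 log2 units, against -0.88, with 1 higher and 5 lower interaction calls. The geranyltransferase that makes cannabigerolic acid, LOC115713215 on chromosome X, had 7.43 and 7.3 FPKM in males at week 3, against 17.8 and 15.6 at week 1. Female libraries held 48.9 and 42.1 FPKM at week 3, against 13.6 and 15.9 at week 1, and its interaction was -2.64 ± 0.19 log2 units (limma adjusted p = 2.81e-06). A hexanoyl-CoA synthase-like gene (LOC115709751), of the enzyme family that primes the cannabinoid side chain, had 26.1 and 31.0 FPKM in males at week 3, against 51.3 and 55.1 at week 1. Female libraries held 95.2 and 81.2 FPKM of it at week 3, against 53.0 and 52.9 at week 1.

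Of 25 terpene genes tested, 1 rose and 13 fell in males and 6 rose and 6 fell in females, and the interaction was called for 1 with the higher and 11 with the lower change in males. The share called in the interaction, 48%, was near the 45.8% of all genes. The female median of -0.12 log2 units turned to 0.04 on the TPM scale. A limonene synthase-like gene, LOC115716064, had 13.3 and 16.0 FPKM in males at week 3, against 21.9 and 21.9 at week 1, and 78.8 and 68.9 FPKM in females at week 3, against 25.8 and 28.4 at week 1. Alpha-humulene synthase (LOC115724563) instead fell in both sexes, with 0.62 and 0.748 FPKM in males at week 3 against 19.9 and 15.7 at week 1. In females it had 0.978 and 0.88 FPKM at week 3, against 14.6 and 18.9 at week 1.

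Of 42 flavonoid genes, 7 rose and 15 fell in males and 18 rose and 6 fell in females, and the interaction was called for 3 with the higher and 22 with the lower change in males. The 7 male rises became 4 without male week 1 replicate 2. Of the list, 59.5% were called in the interaction, beside 45.8% of all genes, and 6 genes rose in females and fell in males. The 3 higher interaction calls became 5 without male week 3 replicate 1. A flavonol glucosyltransferase, F3GT2-like (LOC133038715), went the other way. It had 19.1 and 18.0 FPKM in males at week 3, against 0.0866 and 0 at week 1, and at most 0.0343 FPKM in any female library.

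Of the floral MADS-box genes, more rose than fell in each sex. Of 20 tested, 11 rose and 4 fell in males, 13 rose and 2 fell in females, and the interaction was called for 4 with the higher and 11 with the lower change in males. The share called in the interaction was 75%, beside 45.8% of all genes. By class, 8 rose together, 1 fell together, 3 were opposite, and 2 rose in males only and 2 in females only. AGAMOUS (LOC115697576), which specifies stamens and carpels, had 34.9 and 40.5 FPKM in males at week 3, against 5.41 and 3.66 at week 1. Female libraries held 88.5 and 66.5 FPKM at week 3, against 2.96 and 4.15 at week 1. The rise was larger in females, with an interaction of -1.28 ± 0.37 log2 units (limma adjusted p = 0.017), a call lost at a pseudocount of 0.1 (0.232) and without male week 3 replicate 1 (0.0731), female week 3 replicate 1 (0.0742) or female week 1 replicate 1 (0.0618).

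The other gene described as AGAMOUS, LOC115700192 on chromosome X, whose closest Arabidopsis protein is SEEDSTICK at 32% identity, rose in males only. It had 286 and 254 FPKM in males at week 3, against 5.31 and 3.11 at week 1, while female libraries held 2.88 and 2.38 FPKM at week 3 and 2.98 and 4.18 at week 1. MADS4 (LOC115712087), of the SEPALLATA type that partners the organ identity proteins, rose in both sexes. It had 37.6 and 33.4 FPKM in males at week 3, against 7.85 and 5.84 at week 1, and 83.9 and 66.3 FPKM in females at week 3, against 4.16 and 5.94 at week 1. MADS3 (LOC115716337), closest to AGL6, rose in females only, with 94.6 and 85.6 FPKM at week 3 against 13.1 and 13 at week 1. Male libraries held 17.2 and 17.1 FPKM of it at week 3, within the 19.6 and 11.4 FPKM of week 1. Another gene described as MADS3 and closest to AGL6, LOC115704294, rose in both sexes, by 1.03 ± 0.18 log2 units in males and 2.49 ± 0.18 in females.

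The genes described as truncated CAULIFLOWER A differed among themselves. LOC115698549, closest to APETALA1, fell in males by 1.16 ± 0.22 log2 units and rose in females by 1.46 ± 0.22. LOC115725163, closest to a gene of the FLC clade, fell together, by 2.81 ± 0.17 in males and 3.03 ± 0.17 in females. LOC115701438 was not called in either sex, with changes of -0.07 ± 0.13 in males and 0.06 ± 0.13 in females.

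The other leaders that rose together were a protease, lipid and metal proteins and a sugar carrier. Vignain (LOC115712336), a cysteine protease of senescing tissue, had 46.4 and 80.8 FPKM in males at week 3, against 1.14 and 1.24 at week 1. Female libraries held 53.9 and 58.0 FPKM at week 3, against 1.02 and 0.722 at week 1, and the interaction was -0.10 ± 0.32 log2 units (limma adjusted p = 0.826). Metal tolerance protein 9 (LOC115708277) rose by 3.04 ± 0.21 in males and 3.32 ± 0.21 in females, and the sugar exporter SWEET10 (LOC115710321) by 3.55 ± 0.25 in males and 2.85 ± 0.25 in females. EARLI 1 (LOC115705843) rose in both and more in males, with 120 and 88.9 FPKM in males and 13 and 14.9 in females at week 3. At week 1 its 4 libraries held at most 0.000116 FPKM.

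Genes that moved together and were also called in the interaction made 5.63% of all genes tested, beside 45.8% called in the interaction in either direction. Of the 1505 genes that rose in both sexes, 664 were called in the interaction, 529 of them with the larger rise in males and 135 with the larger rise in females. Of the 841 that were not called, 644 had a 95% interval of the interaction within 1 log2 unit of 0. Of the 1967 genes that fell in both, 363 were called, 316 with the larger fall in males and 47 with the larger fall in females, and 1194 of the other 1604 had such an interval.

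Most photosynthesis genes, taken as markers of green tissue, fell in both sexes. Of 48 tested, 1 rose and 42 fell in males, 2 rose and 45 fell in females, and 41 fell in both. The median change was -1.35 log2 units in males and -1.48 in females. By limma the interaction was called for 2 with the higher and 0 with the lower change in males. The list had 4.17% called, beside 45.8% of all genes, and a median interaction of 0.06 log2 units, or -0.20 on the TPM scale. Without male week 1 replicate 2 the higher calls numbered 9, and without male week 1 replicate 1 the lower calls numbered 5, as they did on the TPM scale. Summed FPKM was 9994 and 11350 in males at week 3, against 24770 and 41090 at week 1, and 14670 and 13900 in females at week 3, against 48340 and 37780 at week 1.

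Of the cytosolic ribosomal protein genes called, most fell. Of 200 tested, 13 rose and 111 fell in males, 3 rose and 81 fell in females, and the interaction was called for 14 with the higher and 13 with the lower change in males. That made 13.5% called in the interaction, beside 45.8% of all genes. The median was -0.51 log2 units in males and -0.42 in females, and 62 fell in both. These counts moved with the libraries: male falls numbered 68 without male week 3 replicate 2, and female falls 26 without female week 3 replicate 2, 39 without the other week 3 female library, and 35 and 31 without replicates 1 and 2 of female week 1. On the TPM scale 10 rose and 33 fell in females, the interaction was called for 9 with the higher and 46 with the lower change in males, and its median was -0.34 log2 units, against -0.08. Higher interaction calls numbered 26 without male week 1 replicate 1 and 9 without female week 3 replicate 2. Lower calls numbered 29 without male week 1 replicate 2, and 2 to 6 without male week 3 replicate 2 or any 1 female library. A uL2z-like gene (LOC115717100) ran against the list, with 55.1 and 57.3 FPKM in males at week 3 and 0 in the other 8 libraries.

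MYB6 (LOC115702585), described as a repressor and closest to the Arabidopsis flavonol regulator MYB111, fell in both sexes. It had 0.486 and 0.434 FPKM in males at week 3, against 12.1 and 13.5 at week 1, and 0.64 and 0.477 FPKM in females at week 3, against 13.2 and 15.2 at week 1. Patatin-like protein 2 (LOC115696747), a lipid hydrolase, fell by 3.34 ± 0.27 log2 units in males and 4.26 ± 0.27 in females. The top-ranked fall in both sexes, of mulatexin LOC115715128, rested on replicates far apart, with 10.7 and 389 FPKM in males at week 1 and 907 and 96.2 in females at week 1. Its male call was lost without male week 1 replicate 2 (limma adjusted p = 0.131) or without any week 3 library (0.0602 to 0.0826). That call was also lost in a fit without the vegetative libraries (limma adjusted p = 0.0681). Its female call was lost without female week 1 replicate 1 (limma adjusted p = 0.112) or either female week 3 library (0.0938 and 0.0941).

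The 3193 genes that rose in males only had a median of 27 FPKM at male week 3, against 5.67 at male week 1, 5.79 at female week 3 and 5.73 at female week 1. Of them, 992 had a mean below 1 FPKM in every group other than male week 3, and 239 were listed at 0 in all 8 other libraries. These 992 passed the filter through male week 3 alone, so the filter itself favoured a male rise. Genes that passed through female week 3 alone were favoured to a female rise in the same way and were not counted. Among all 18230 genes tested, 1240 met the same bound and 265 were listed at 0 in those 8 libraries. An ATL6-like ubiquitin ligase (LOC115718105) had 3270 and 3320 FPKM in males at week 3, was listed at 0 in both week 1 male libraries, and held at most 7.57e-08 FPKM in any female library. MEN-8 (LOC115715872), an anther protein known from the male flowers of Silene, had 2210 and 4330 FPKM in males at week 3 and was listed at 0 in both male and both female week 1 libraries. Week 3 females held 0.321 and 0.106 FPKM of it.

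Tapetum and sporopollenin genes build the outer pollen wall. Of 17 tested, 15 rose and 0 fell in males, 1 rose and 2 fell in females, and the interaction was called for 15, all with the higher change in males. The male median was 4.50 log2 units and the female median 0, and 88.2% were called in the interaction, beside 45.8% of all genes. With no filter on low values, 1 of 19 was called with the lower change in males. The genes named below passed the filter through male week 3 alone. Type III polyketide synthase A (LOC115715682), which makes the polyketide precursors of sporopollenin, had 544 and 543 FPKM in males at week 3, against 0.0534 and 0.0606 at week 1. Its female libraries held 0.0426 and 0.127 FPKM at week 3, against 0.105 and 0 at week 1. The hydroxylase CYP703A2 (LOC115707784) had 210 and 387 FPKM in males at week 3 and 0.238 to 0.334 FPKM in the other 6 flowering libraries. Tetraketide alpha-pyrone reductase 1 (LOC115702568) and the exporter ABCG26 (LOC115724967) had 118 and 134 FPKM and 92.1 and 111 FPKM in males at week 3, and were listed at 0 in the other 6 flowering libraries.

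Of the heat shock genes, chaperones that help proteins fold, more rose than fell in males. Of 60 tested, 34 rose and 8 fell in males, 8 rose and 9 fell in females, and the interaction was called for 35 with the higher and 2 with the lower change in males. The male median was 0.77 log2 units and the female median 0.02, and 61.7% were called in the interaction, beside 45.8% of all genes. The 8 female rises numbered 3 without either female week 3 library or replicate 2 of female week 1, and 5 without replicate 1 of female week 1. On the TPM scale they numbered 15, with a female median of 0.16. An HSP70-like gene (LOC115695984) had 40.6 and 21.0 FPKM in males at week 3 and at most 0.0883 FPKM in the other 6 flowering libraries. The mitochondrial heat shock 22 kDa gene (LOC115707101) had 436 and 273 FPKM in males at week 3, against 1.99 and 1.08 at week 1, and vegetative apices held 89.4 and 42.9 FPKM.

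More sugar transport genes rose than fell in each sex, and 66% were called in the interaction, beside 45.8% of all genes. Of 50 tested, 26 rose and 9 fell in males, 21 rose and 2 fell in females, and the interaction was called for 18 with the higher and 15 with the lower change in males, or 16 and 17 on the TPM scale. Female rises numbered 13 without replicate 1 of either female week, and 12 without replicate 2 of female week 3. The lower interaction calls numbered 8 without replicate 1 of female week 3, and 9 without replicate 1 of female week 1 or of male week 3. The male-only carrier SWEET6b (LOC115698891) had 196 and 184 FPKM in males at week 3, against 1.18 and 0.923 at week 1, and 1.88 to 2.84 FPKM in the female libraries. A cell wall invertase (LOC115699486), which splits sucrose outside the cell, had 123 and 55.0 FPKM in males at week 3 and was listed at 0 in both week 1 male libraries.

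The class that fell in males only was led by a ribonuclease, thionin and phosphatase gene. Ribonuclease 3 (LOC115721896), a secreted RNase, had 14.3 and 11.3 FPKM in males at week 3, against 720 and 339 at week 1. Female libraries held 370 and 343 FPKM at week 3, against 298 and 361 at week 1, and the male change was -5.18 ± 0.29 log2 units (limma adjusted p = 2.07e-07). The probable inactive purple acid phosphatase 27 (LOC115709616) had 30.9 and 46.0 FPKM in males at week 3, against 924 and 707 at week 1. Its female libraries held 538 and 515 FPKM at week 3, against 735 and 772 at week 1, a change of -0.52 ± 0.20 log2 units that did not pass (limma adjusted p = 0.0702).

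Among meristem homeobox genes more fell than rose in males, and 56% were called in the interaction, beside 45.8% of all genes. Over all genes 28% fell in males and 18.8% rose in females. Of 25 tested, 4 rose and 14 fell in males, 5 rose and 1 fell in females, and the interaction was called for 3 with the higher and 11 with the lower change in males. Female rises numbered 8 without either male week 1 library, 3 without female week 3 replicate 2 and 10 on the TPM scale, where 15 were called with the lower change in males. WUSCHEL (LOC115711960), which maintains stem cells and acts in anthers and ovules, was an exception. It had 2.66 and 5.77 FPKM in males at week 3, against 0.0633 and 0.144 at week 1, and at most 0.403 FPKM in females.

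Genes that rose in females only were led by a pair of neighbouring MLP-like protein 34 genes, of the major latex protein family, on chromosome 8. The gene LOC133030054 (25731614 to 25732635) had 152 and 113 FPKM in females at week 3, against 0.0855 and 0.415 at week 1. Male libraries held 0.376 and 0.474 FPKM at week 3, against 0.0875 and 0.595 at week 1. The neighbour LOC115699452 rose by 4.82 ± 0.19 log2 units in females, and the copies may share reads. Laccase-15 (LOC115705062), whose Arabidopsis relative browns the seed coat, had 50.9 and 40.7 FPKM in females at week 3, against 0.0331 and 0.417 at week 1. Its male libraries held 0.874 and 1.17 FPKM at week 3, against 0.236 and 0.767 at week 1.

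FBP24 (LOC115700907), a MADS-box gene of the seed coat clade, had 11.9 and 9.38 FPKM in females at week 3, against 0.336 and 0.261 at week 1. Male libraries held 0.444 and 0.149 FPKM at week 3, against 0.275 and 0.546 at week 1, and overlapped. Annexin RJ4 (LOC115704667), a calcium-binding membrane protein, had 228 and 171 FPKM in females at week 3, against 8.43 and 9.17 at week 1, and 12.2 to 16.9 FPKM in the male libraries. Mini zinc finger protein 2 (LOC115700484) rose by 4.41 ± 0.31 log2 units in females, with a male change of -0.14 ± 0.31. Like FBP24 and the pair of MLP-like genes, it passed the filter through female week 3 alone, which favoured a female rise.

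The few genes that fell in females only were led by histone H3.2 (LOC115721179), with 43.4 and 37.9 FPKM in females at week 3 against 168 and 187 at week 1. Male libraries held 219 and 191 FPKM at week 3, against 259 and 175 at week 1. The GDSL lipase LTL1 (LOC115719756) had 102 and 104 FPKM in females at week 3, against 387 and 398 at week 1, and 287 to 412 FPKM in the male libraries.

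**Figure D4:**
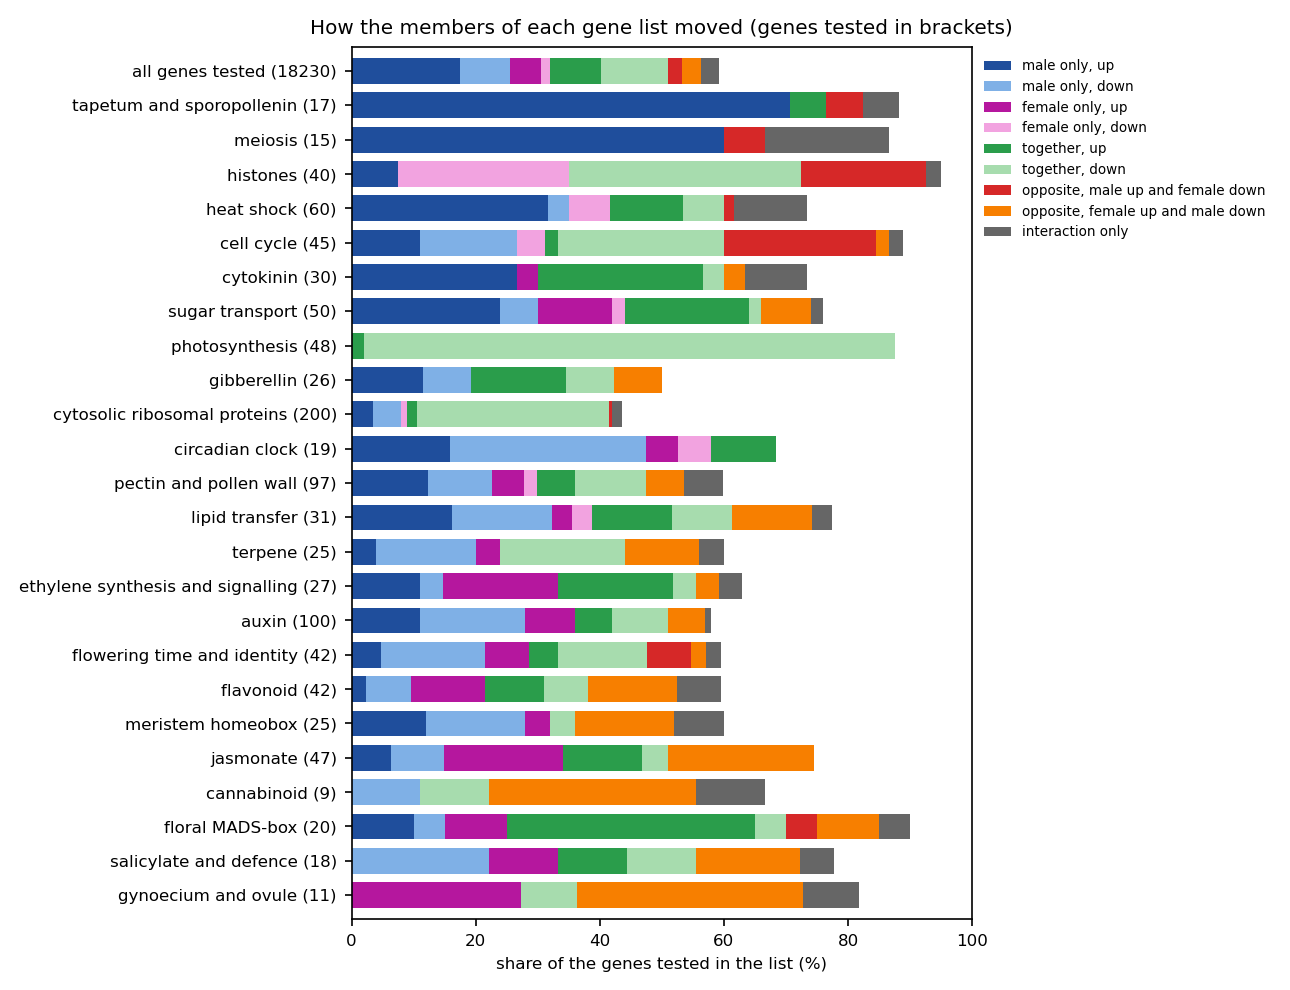
Bars give the share of the tested members of each list that fell into each class, with all genes in the top bar and lists in order of their median interaction from highest to lowest. Tapetum and meiosis genes are mostly male only and up (dark blue), with 12 of 17 and 9 of 15, and 41 of 48 photosynthesis genes are together and down (light green). Female up with male down (orange) holds 4 of 11 gynoecium, 3 of 9 cannabinoid and 11 of 47 jasmonate genes, beside 3.08% of all genes.

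Ethylene is the hormone whose perception STS blocks. Of 27 ethylene genes tested, 9 rose and 4 fell in males, 13 rose and 1 fell in females, and the interaction was called for 4 with the higher and 9 with the lower change in males, or 5 lower without female week 1 replicate 1. The share called in the interaction, 48.1%, was near the 45.8% of all genes, and with no filter on low values 7 of 35 were called with the higher change in males. Among the ethylene genes named by rule, LOC115722336 and LOC115722335 were lower in males than in females at week 3. Their male minus female difference was -1.99 log2 units each, against 0.21 and 0.06 at week 1. The leaders by size of interaction were higher in males. ACC oxidase 5 (LOC115699408), of the family that makes ethylene, had 36.0 and 49.2 FPKM in males at week 3, against 0.188 and 0.214 at week 1. Its female libraries held 0 and 0.0498 FPKM at week 3, against 0.368 and 0.298 at week 1. An EIN3-like gene (LOC115711236), of the transcription factors that end the ethylene pathway, had 136 and 117 FPKM in males at week 3, against 17.5 and 12.3 at week 1, and its male rise exceeded the female rise by 2.29 ± 0.24 log2 units (limma adjusted p = 3.91e-05). Its female rise of 0.73 ± 0.17 log2 units was lost without female week 3 replicate 1 (limma adjusted p = 0.0611) or female week 1 replicate 1 (0.0736).

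More cytokinin genes rose than fell in each sex, and 56.7% were called in the interaction, beside 45.8% of all genes. Of 30 tested, 19 rose and 2 fell in males, 11 rose and 2 fell in females, and the interaction was called for 14 with the higher and 3 with the lower change in males. Female rises numbered 7 without female week 3 replicate 2. The cytokinin-activating enzyme LOG (LOC115700845) had 45.5 and 31.3 FPKM in males at week 3, against 0.438 and 0.331 at week 1, and 0.139 to 0.525 FPKM in the female libraries. The response regulator ARR9 (LOC115700593) had 115 and 90.3 FPKM in males at week 3, against 5.39 and 3.83 at week 1, and 5.61 to 6.33 FPKM in the female libraries.

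Of 100 auxin genes, 20 rose and 34 fell in males and 21 rose and 11 fell in females, and the interaction was called for 15 with the higher and 38 with the lower change in males. That made 53% called in the interaction, beside 45.8% of all genes. Female rises numbered 13 without female week 1 replicate 1 and 37, of 107 tested, on the TPM scale. The repressor IAA14 (LOC115722629) had 2.48 and 2.17 FPKM in males at week 3, against 12.1 and 15.2 at week 1. Female libraries held 39.1 and 33.9 FPKM at week 3, against 18.3 and 14.1 at week 1. Its interaction was -3.26 ± 0.23 log2 units (limma adjusted p = 2.31e-06).

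Of 26 gibberellin genes, 9 rose and 9 fell in males and 6 rose and 4 fell in females, with 4 higher and 5 lower interaction calls, or 34.6% called, beside 45.8% of all genes. Female rises numbered 3 without female week 3 replicate 2 and 11 on the TPM scale, and the median interaction of 0.03 log2 units turned to -0.19 on the TPM scale. A gibberellin 20-oxidase (LOC115694716), an enzyme of gibberellin synthesis, had 6.68 and 14.7 FPKM in males at week 3, against 0.0966 and 0.537 at week 1. Gibberellin 3-beta-dioxygenase 1 (LOC115705300), of the last step, had 2.0 and 1.38 FPKM in males at week 3, against 11.2 and 10.8 at week 1. Its female libraries held 9.35 and 7.73 FPKM at week 3, against 5.24 and 7.0 at week 1.

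The other lists were mixed. Of 42 flowering time and identity genes, 8 rose and 16 fell in males and 10 rose and 11 fell in females, with 5 higher and 16 lower interaction calls. In all, 50% were called in the interaction, near the 45.8% of all genes. On the TPM scale 15 rose and 8 fell in females and 25 were called with the lower change in males. Female falls numbered 7 without either female week 3 library. Squamosa promoter-binding protein 1 (LOC115700826), of a family that promotes flowering, had 12 and 10.9 FPKM in males at week 3, against 31.3 and 24.2 at week 1, and 64.3 and 52.7 FPKM in females at week 3, against 20.7 and 23.6 at week 1. Of 31 lipid transfer genes, 9 rose and 13 fell in males and 9 rose and 5 fell in females. The interaction calls, 7 higher and 13 lower, made 64.5%, beside 45.8% of all genes. The 5 female falls numbered 2 without replicate 1 of female week 3, and 3 without replicate 2 of either female week.

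Of 97 pectin and pollen wall genes, 25 rose and 33 fell in males and 20 rose and 17 fell in females, with 20 higher and 27 lower interaction calls, or 48.5% called, near the 45.8% of all genes. With no filter on low values, where 170 were tested, both balances turned: 62 rose and 32 fell in males, and 42 were called higher and 25 lower in the interaction. Leaving out a female library gave 12 or 13 female rises and 8 to 11 female falls. Its members included a polygalacturonase inhibitor-like gene (LOC115700758) with 273 and 351 FPKM in males at week 3 and 0 in the other 6 flowering libraries. A pectinesterase inhibitor (LOC115708921) had 68.1 and 60.4 FPKM in females at week 3, against 1.35 and 0.831 at week 1, and was listed at 0 in both week 3 male libraries. Of 19 circadian clock genes, 7 rose and 8 fell in males and 3 rose and 1 fell in females. The interaction calls, 6 higher and 7 lower, made 68.4%, beside 45.8% of all genes. The higher calls numbered 3 without female week 3 replicate 2 or female week 1 replicate 1. On the TPM scale 3 were higher and 9 lower. The lower calls numbered 4 without male week 3 replicate 1, female week 3 replicate 1, female week 3 replicate 2 or female week 1 replicate 2.

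The classes also differed in where their genes lie and how many are transcription factors. Of the 392 placed genes that rose in males and fell in females, 69 (17.6%) lay on chromosome X, beside 12.3% of all placed genes tested and 10.2% to 13.8% in the other 7 classes. Transcription factors made up 7.92% of the genes that rose in females only, against 2.5% of those that rose in males and fell in females, and 3.91% of all genes. Among the 46 NAC factors tested, 12 rose together and 0 fell together, and among 59 bHLH factors 4 rose together and 10 fell together. Of all genes, 8.26% rose together and 10.8% fell together. Other families varied: 10 of 58 MYB factors rose together and 4 fell, and 8 of 17 MIKC MADS factors rose and 0 fell. The families given here are only some of those counted. These shares were not tested, since neighbouring and related genes are not independent.

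In the authors' deposited table, both week comparisons were called in the same directions for 314 of the 400 genes that rose in males and fell in females and for 396 of the 562 that rose in females and fell in males. The authors' deposited table called both for 1097 of the 1505 genes that rose together and for 1757 of the 1967 that fell together. Of the 3193 genes that rose in males only, the authors' deposited table called 2898 in males and 169 in females. For the 1476 that fell in males only, it called 1257 in males and 179 in females. It called 832 of the 884 that rose in females only in females and 1 in males. For the 276 that fell in females only, these numbers were 262 and 0.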

How the data were processed

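RNA-seq of shoot apices had been summarised by gene in 1 deposited table for 10 libraries, 2 in each of 5 groups. Its file header names no unit. The deposited values were read as FPKM from their size and cannot be told from RPKM; what the authors aligned and counted with is not given in the sources used for this. In addition, the authors' deposited table held log2 fold changes, their p-values and adjusted p-values, and percent identity to Arabidopsis proteins, and these were used to describe genes and to set calls side by side. Read depth is unknown, and only depth relative to other libraries was estimated from low values.

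The test planned for counts or FPKM was run for FPKM. Values entered as log2(FPKM + 1) with R 4.3.3 and limma 3.58.1: 1 mean for each group, empirical Bayes with trend and robust estimation, 2-sided, Benjamini-Hochberg over the 18230 genes that reached a group mean of 1 FPKM in any flowering group, threshold 0.05. Such changes understate those of low genes. The other sex's 95% interval had to lie within 1 log2 unit of 0 for a class of 1 sex. The script was tested on simulated data.

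Genes named by rule were, in each class, the 6 with the largest change among described genes reaching 10 FPKM. Opposite and together genes were ranked by the smaller of the changes in the sexes. The rule also took up to 4 interaction calls in each of 24 lists, and all floral MADS-box genes. Only some of the genes that the rule took are given in the text. Genes given from outside the rule are said to be chosen after their values were seen, or serve the label check. Members and lists were chosen with earlier results of these data known. From the circadian list, 1 search term was dropped after results were seen because it also matched auxin genes. Symbols were matched to the RefSeq table of ASM2916894v1 for 34658 genes, whose coordinates are printed.

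Alternatives covered pseudocount, filter, scaling, replicate block, moderation, a fit without vegetative apices, class bounds and each flowering library left out.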

Additional observations from a re-analysis of the deposited data

Results flagged for a closer look

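The change between weeks differed between the sexes, by the test of that difference, for 4721 genes with the higher change in males and 3637 with the lower change in males. Within these, 400 genes rose in males and fell in females, and 562 rose in females and fell in males. Of the 149 genes named by rule, 135 were called in the interaction, a count that the rule largely fixes, since it takes most of them from interaction calls. No explanation was weighed.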

How the results depend on the processing

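Scaled to equal totals (TPM), lower interaction calls numbered 5557 and female rises 5849. Male up with female down then held 205 genes, female up with male down 1099, together up 2311, female only up 1623 and female only down 152. With the other sex's interval held within 0.5 log2 unit, male only held 1525 up and 702 down, female only 332 up and 113 down, and 3697 genes had no class. Asking for 1 log2 unit in both sexes left 53 opposite genes up in males, 59 up in females, 333 together up, 696 together down and 2182 with no class. At a pseudocount of 0.1, 1652 had no class, while male only up held 2239 genes, against 3193, and female only up 622, against 884. The cause was not tested.

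Leaving out 1 library gave 4008 to 4745 higher and 2667 to 3723 lower interaction calls, 5658 to 6018 male rises, 4275 to 4942 male falls, 1923 to 3818 female rises and 1787 to 3380 female falls. The ranges were 170 to 458 for male up with female down, 270 to 679 for female up with male down, 826 to 1616 together up and 1294 to 2166 together down. They were 2808 to 3116 for male only up, 1137 to 1410 for male only down, 526 to 899 for female only up, 152 to 388 for female only down and 441 to 1065 for no class.

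The libraries share only a replicate number: deviations of same-numbered libraries correlated at -0.417 to 0.215 over pairs of groups. A fit with the replicate block called 4614 genes higher and 3483 lower in the interaction, with 351 and 520 opposite genes, within 1.5 times the reported counts. Among named genes it ended the male call of mulatexin LOC115715128 (limma adjusted p = 0.074).

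Among named genes 1 value turned: the interaction of polyphenol oxidase I LOC133033538 was 0.005 log2 units at a pseudocount of 0.1, against -0.82. With a filter of 5 FPKM or none, fewer or more members of a list were tested and their counts moved with that number. Unknown read depth limits what can be said of genes near 0.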
